A study of Mus musculus with 7 samples.

Results

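Slc27a4, Dgat2, Plin2 and Mttp encode proteins that act at steps in the passage of dietary fat from the gut lumen towards the lymph. The sites at which HuR was called on their RNA are described here. All sites that the authors' lists assign to these 4 gene names were taken, which gave 6 sites of 18072 in the series and 4 of its 6277 genes with a site. The lists come from RNA immunoprecipitation sequencing, in which a protein is captured from lysed cells with an antibody and the RNA that comes with it is sequenced. The cells were CT26.WT, a wild-type mouse colon cancer line grown in serum-supplemented medium with no treatment stated. The series has 7 samples: 3 immunoprecipitations with an antibody against endogenous HuR, 3 with IgG and 1 input of total RNA that the series describes as divided in 3. The values analysed are those of the 3 HuR immunoprecipitations, called lists 1, 2 and 3 below, and no values of the IgG or input libraries were read here. The study asks which mRNAs HuR binds in intestinal fat absorption.

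HuR, encoded by Elavl1, is an RNA-binding protein that recognises stretches rich in U and AU, mostly in introns and 3′ untranslated regions, and is known for prolonging the life of the mRNAs it binds. In the small intestine, fatty acids taken up at the brush border are joined back into triglyceride in the endoplasmic reticulum, held for a time in cytosolic lipid droplets and loaded onto apolipoprotein B to leave the cell as chylomicrons. Slc27a4, also called FATP4, is a long-chain acyl-CoA synthetase linked with fatty acid uptake. Dgat2 encodes an enzyme that adds the last fatty acid to diacylglycerol, Plin2 a protein that coats lipid droplets, and Mttp the large subunit of the microsomal triglyceride transfer protein, which loads lipid onto apolipoprotein B. CT26.WT is a tumour line and not an absorbing enterocyte. Of the enterocyte genes Fabp2, Apoa4, Apob, Alpi and Sis, 0 of 5 had a listed site. Of the markers of colon epithelium, 2 of 6 had one (Krt18 and Krt20), while Epcam, Krt8, Cdh1 and Vil1 had none. Of the mesenchymal markers, 2 of 3 had one (Col1a1 and Zeb1), while Vim had none. These counts stand beside a site for 28.4% of the 21900 protein-coding genes of a RefSeq table, whether or not the cells express them. A list of sites shows no expression level, so these counts do not show whether the cells make the mRNAs.

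Each list holds part of the caller's sites. The sites listed number 4722, 5384 and 7966, while the highest site number is 35258, 37141 and 39806, so 13.4%, 14.5% and 20% of the site numbers are listed. A gene without a listed site can therefore still have had a call that was not listed. Read depth is unknown, each value comes from 1 library and carries no replicate error, and the labels do not state whether separate cultures were used. Each site has a fold enrichment, the ratio of its signal to an unnamed control as the caller computed it. Its score is the caller's p as −10 log10 p, so that a larger score means a smaller p. Fold, score and FDR are the authors' values, and they rank sites only within a list. A site could have both a higher score and a higher FDR than another site of its list. The FDR is therefore not read here as a measure of how strong a site is.

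All 4 genes had a site, 2 genes in each list, and none had a site in all 3 lists. Mttp had sites in lists 1 and 2, Plin2 in lists 2 and 3, Dgat2 in list 1 and Slc27a4 in list 3. Among all genes with a site, 54.5% had one in list 1, with 57.8% for list 2 and 62.8% for list 3. The 2 of 4 members with sites in at least 2 lists stand beside 55.2% of all genes with a site, and the 0 of 4 in all 3 lists beside 19.9%. The members were chosen with their sites known, so the 4 of 4 with a site is no result beside the 28.4% of protein-coding genes. No member had more than 1 site in a list, and Dgat2 and Slc27a4 had 1 site in all, as did 35.8% of the genes with a site.

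Slc27a4 carried its site in list 3 at chr2:29692646-29692972 (mm39), assigned to the transcript ENSMUST00000080065. At 327 bases it was the longest of the 6 sites, and longer than 81% of the sites of list 3. Its fold of 8.96 lay a little above the list's median of 8.38, with 58.7% of sites lower. Its score of 56.86 lay near the lower end, where the list starts at 50.02, and 14% of sites scored lower. A fold of 8.96 was shared by 6 sites of list 3, and the Slc27a4 site had the lowest score of the 6. The caller's FDR there was 9.41%, against a list median of 9.73%. The site thus combined a middling fold with a weak p. In list 2 the nearest site was assigned to another gene, Coq4, at a distance of 7123 bases, and in list 1 the nearest was in Urm1, 40142 bases away.

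Dgat2 carried its site in list 1 at chr7:98806184-98806386, on the transcript ENSMUST00000033001, with a length of 203 bases. The fold was 7.81, beside a list median of 7.21, and 58.5% of sites were lower. The score was 67.29, beside a list median of 87.3, and 28.8% of sites scored lower. The same fold was given to 199 sites in 190 genes of list 1, whose scores ran between 50.27 and 185.75 with a median of 70.9. The fold alone therefore does not set the Dgat2 site apart within its list. Its FDR was 16.19%, higher than that of 69.8% of the sites of list 1. Lists 2 and 3 had no Dgat2 site. The nearest site of list 2 lay 15835 bases away in Uvrag, a gene of autophagy, and that of list 3 158509 bases away in Map6.

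Plin2 had a site in list 2 at chr4:86582666-86582748 and another in list 3 at chr4:86578325-86578506, both on the transcript ENSMUST00000000466. The site of list 2 was short, 83 bases, and its fold of 4.21 was the lowest of the 6 sites. Only 11.8% of the sites in list 2 had a lower fold, while 39.7% had a score below its 71.6. The site of list 3 was 182 bases long, with a fold of 10.05 and a score of 135.04. Both of these values lay in the upper part of list 3, where 73.1% of sites had a lower fold and 79.4% a lower score. Its FDR was 10.13%, higher than that of 80.1% of the sites of list 3 despite the high score. The FDR of the site of list 2 was 13.01%. Plin2 thus stood low by fold in list 2 and high in list 3, at positions 4159 bases apart.

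Mttp had a site in list 1 at chr3:137798340-137798510 and another in list 2 at chr3:137829494-137829637, both on the transcript ENSMUST00000029805. The site of list 1, of 171 bases, had a fold of 9.18 and the highest score of the 6 sites, 157.63. It ranked above 76.2% of list 1 by fold and above 84.1% by score, with an FDR of 14.43% that was higher than that of only 13.9% of its list. The fold of 9.18 was given to 128 sites of list 1, and 118 of them scored lower than the Mttp site. The site of list 2, of 144 bases, had a fold of 6.3 and a score of 75.45. It lay near the middle of list 2, above 47.6% of sites by fold and 44.4% by score, with an FDR of 12.99%. List 3 had no site nearer than Dapp1, 159389 bases from the Mttp site of list 1.

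**Figure D1:**
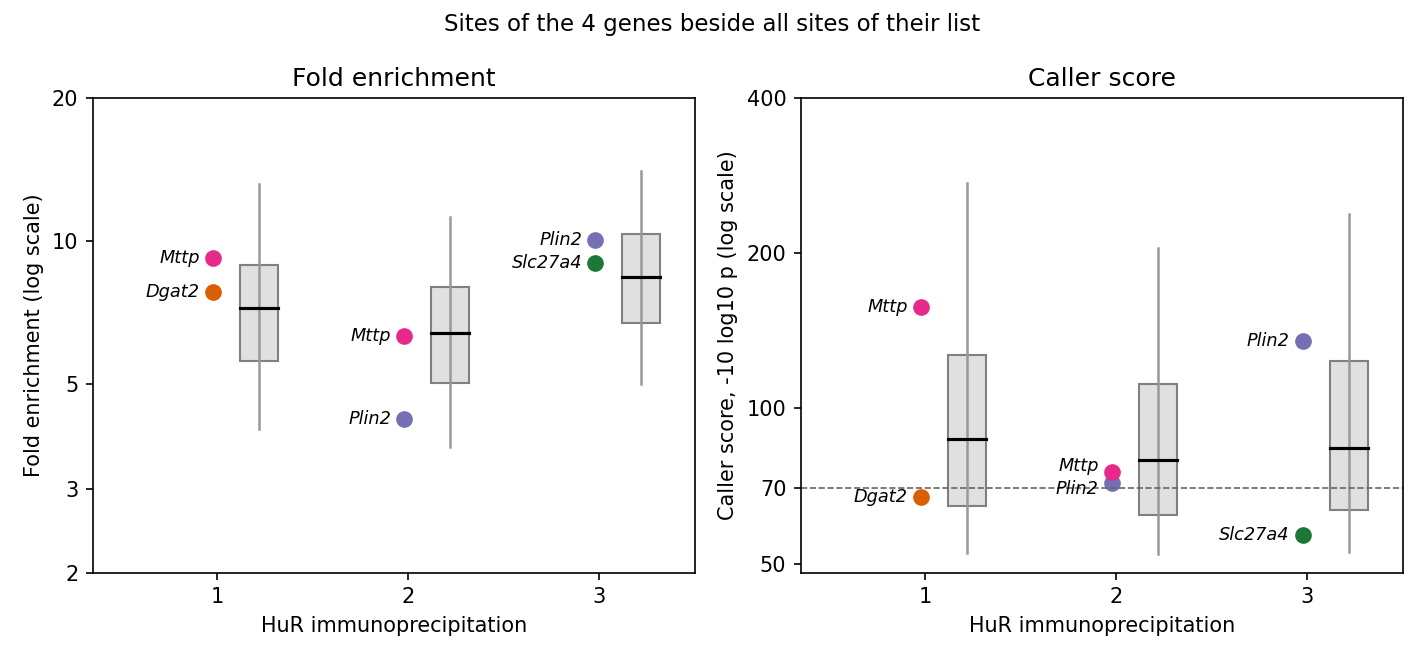
Fold enrichment (left) and caller score (right), both on log axes, of the 6 sites (coloured points) in each HuR immunoprecipitation; beside them, grey boxes span the interquartile range of all sites of that list, black lines mark the medians and whiskers run between the 5th and 95th percentiles. The dashed line marks a score of 70. Mttp in list 1 and Plin2 in list 3 lie high in both panels, and Slc27a4 (56.86) and Dgat2 (67.29) lie under the line.

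Set together, 4 of the 6 sites had a fold above the median of their list and 2 of the 6 a score above it. The folds ran between 4.21 and 10.05 and the scores between 56.86 and 157.63. A score of at least 70, which stands for a caller p at or under 1e-07, was reached by 4 of the 6 sites, and by 65.2% of all sites in the 3 lists. At that score Mttp kept both sites and Plin2 kept both, whereas Dgat2 and Slc27a4 had none left. Of all genes with exactly 1 site, 63.6% had a score of at least 70. A fold of at least 5 was reached by 5 of the 6 sites, the exception being Plin2 in list 2, and by 86.5% of all sites. An FDR under 5% was reached by 0 of the 6, and by 1 of 18072 sites (0.00553%).

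The next question was whether the immunoprecipitations placed HuR at the same point of a gene. No site of the 4 genes overlapped a site of another list, and 0 pairs came within 500 bases. An overlap of at least 1 base with a site of another list was found for 28.6% of all sites, with shares of 29.8%, 35.4% and 23.4% for the 3 lists in turn. Plin2 and Mttp each had 1 site in each of 2 lists. There were 1025 such genes, and in 403 of them (39.3%) the sites overlapped. In the other 622 the median distance between the sites was 8112 bases. For lists 1 and 2, as in Mttp, 44.4% overlapped, and the median distance where apart was 6501 bases. For lists 2 and 3, as in Plin2, these values were 44.4% and 7642 bases. The 4159 bases in Plin2 exceeded the distance in 32.5% of those 622 genes, and the 30983 bases in Mttp exceeded it in 86.8%. The Mttp sites were thus far apart for genes of this kind, and those of Plin2 were not. Distances are along the genome and include introns. Whether the sites lie in exons, introns or untranslated regions was not analysed here, and the distances are not adjusted for gene length.

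**Figure D2:**
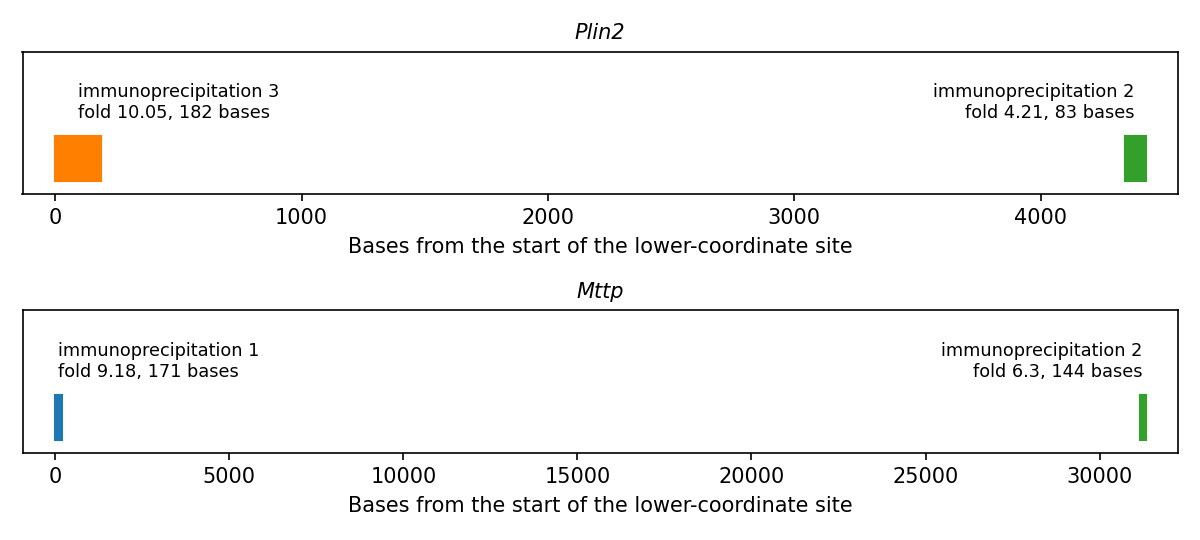
Position of the called sites within Plin2 (top) and Mttp (bottom), in bases from the start of the site with the lower coordinate; the width of each block is the length of the site, drawn to scale with a thin outline, and its colour gives the immunoprecipitation. The sites are 4159 bases apart in Plin2 and 30983 bases apart in Mttp, and none overlap.

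**Figure D3:**
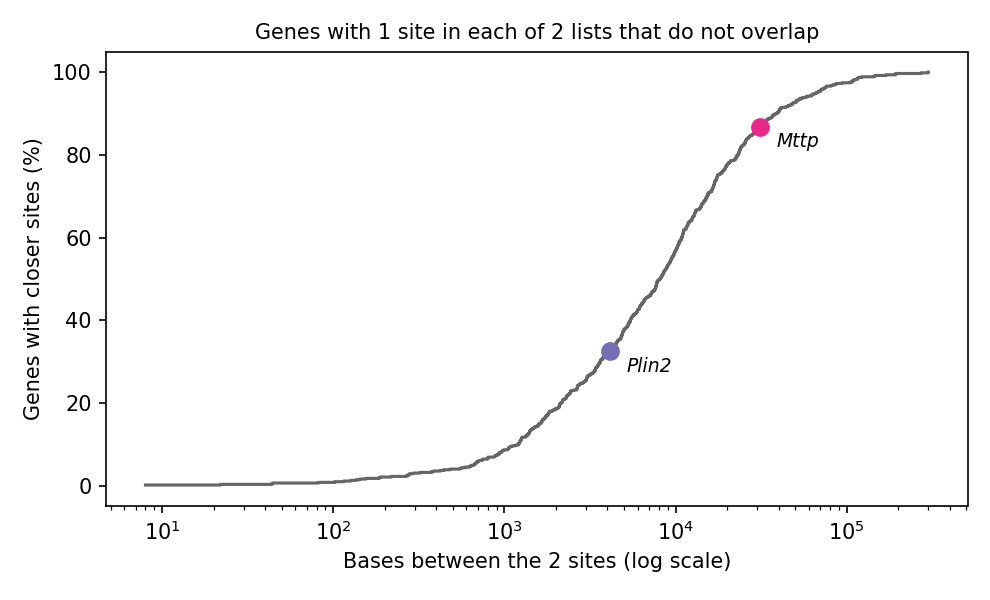
Distance between the sites (log axis, bases) in the 622 genes that had 1 site in each of 2 lists with no overlap, drawn as the percentage of those genes with closer sites. Plin2 lies at 32.5% and Mttp at 86.8%.

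The pathway around the 4 genes was described by 48 genes in 4 roles, members included. Of these, 14 (29.2%) had a site, beside 28.4% of all protein-coding genes. The 14 include the 4 members, which were chosen with their sites known and raise the share here and in each role. The other pathway genes were also listed with earlier results of these data known. The nearness of the 2 shares is therefore no result. For fatty acid uptake, 1 of 13 genes had a site, Slc27a4 itself. The other 5 fatty acid transport proteins on the list (Slc27a1, Slc27a2, Slc27a3, Slc27a5 and Slc27a6) had no listed site, nor had the scavenger receptor gene Cd36, the fatty acid binding protein genes Fabp1, Fabp2, Fabp4 and Fabp5, Got2 or Cav1. For the last steps of triglyceride synthesis, 2 of 5 genes had a site, Dgat2 and Tmem68, an acyltransferase gene, while Dgat1, Mogat1 and Mogat2 had no listed site. At a score of at least 70, neither of these roles kept a gene. Slc27a4, Dgat2 and Tmem68 had 1 site each, and 63.6% of all genes with exactly 1 site reached that score. So few sites cannot describe a role. Tmem68 shared with Slc27a4 the pattern of a site in list 3 alone, with a fold of 14.01 at chr4:3549342-3550131 and a score of 67.21.

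For the coat and growth of lipid droplets, 3 of 14 genes (21.4%) had a site, Plin2, Plin3 and Fitm2, beside 28.4% of all protein-coding genes. Plin2 was chosen with its sites known. All 3 had a site in list 2, as had 57.8% of all genes with a site. Plin3, a coat protein gene related to Plin2, had 2 sites in list 2 with folds of 4.5 and 4.18, close in value to the 4.21 of Plin2 in the same list, and with scores of 66.7 and 56.28. Fitm2, whose protein acts in droplet formation at the endoplasmic reticulum, also had 2 sites in list 2, with folds of 5.73 and 4.35. Plin1, Plin4, Plin5, Cidea, Cideb, Cidec, Fitm1, Bscl2, Ldaf1, Hilpda and G0s2 had no listed site. Plin2 was the only gene of this role with a site in more than 1 list, as had 55.2% of all genes with a site. In the role described next, Mttp, Sec23a, Mia3, Surf4 and Vmp1 also had sites in more than 1 list.

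For chylomicron loading and export, 8 of 16 genes had a site, beside the 28.4% of all protein-coding genes. The 16 genes were listed with earlier results of these data known, so this share is no result. Mttp, chosen with its sites known, is among the 8 with a site. A site with a score of at least 70 was held by 8 of these 8, as by 82.9% of all genes with a site, and the number of sites per gene, up to 8 in Sec23a, was not adjusted for. P4hb, whose protein disulfide isomerase is the partner subunit of the Mttp protein, was listed once, in list 1, with a fold of 7.99 and a score of 780.34 at chr11:120463483-120464079. Its FDR of 17.49% was above the 14.43% of the Mttp site in the same list, although that Mttp site had a lower score, 157.63. Sec23a, a coat subunit of the vesicles that leave the endoplasmic reticulum, was the only pathway gene with a site in all 3 lists. Its highest folds were 7.63, 13.21 and 12.93. Among all genes with a site, 19.9% had one in all 3 lists. Lists 1 and 3 placed a Sec23a site on the same 237 bases, at chr12:59048605-59048841. Surf4, whose protein is a cargo receptor for lipoproteins, had sites in lists 2 and 3, as Plin2 did, with folds of 6.92 and 5.48 on 246 shared bases at chr2:26823287-26823532. Vmp1, a gene of lipoprotein secretion and autophagy, also had sites in lists 2 and 3, with highest folds of 8.41 and 6.01 and a shortest distance of 2249 bases between them. Mia3, which helps large cargo out of the endoplasmic reticulum, had sites in lists 1 and 3 with folds of 4.25 and 7.42, 25910 bases apart. Sec24c had a site in list 2 and Mia2, a relative of Mia3, had 5 sites in list 3. Apob, Apoa1, Apoa4, Apoc3, Sar1b, Tm6sf2, Pla2g12b and Tmem41b had no listed site.

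Of the 6 pathway genes with sites in at least 2 lists, Sec23a and Surf4 had overlapping sites between lists, and Plin2, Mttp, Mia3 and Vmp1 had none. Of all 3465 genes with sites in at least 2 lists, 56.5% had overlapping sites, a share that includes genes with many sites. No pathway gene outside the 4 shared the pattern of Mttp, with sites in lists 1 and 2 alone, which 568 genes (9.05%) showed in all. Lists 2 and 3 alone, as for Plin2, were found in 995 genes (15.9%), list 1 alone, as for Dgat2, in 953 (15.2%), and list 3 alone, as for Slc27a4, in 1045 (16.6%). P4hb was the pathway gene with the pattern of Dgat2, and Tmem68 and Mia2 had that of Slc27a4.

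**Figure D4:**
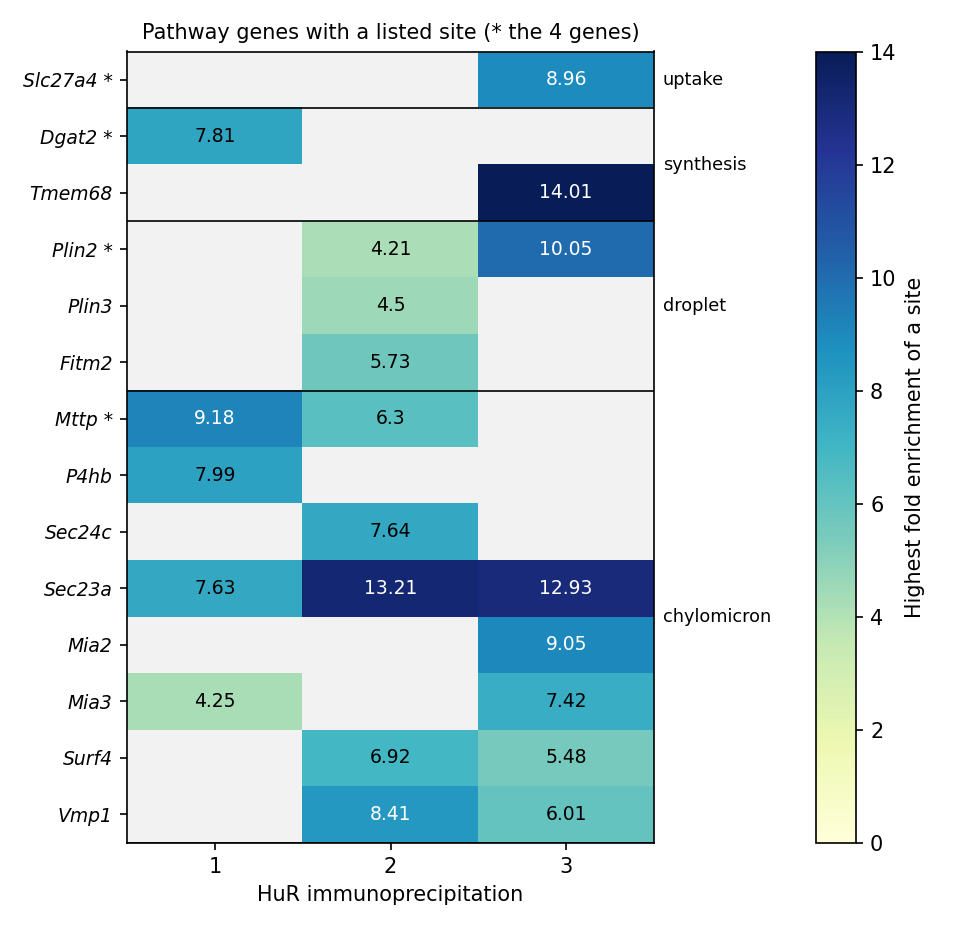
Highest fold enrichment of a site in each HuR immunoprecipitation (columns) for the 14 pathway genes with a listed site (rows, grouped by role; stars mark the 4 genes); pale grey cells had no listed site. Sec23a has a value in all 3 columns, as have 19.9% of all genes with a site. The droplet genes Plin2, Plin3 and Fitm2 all have one in column 2, as do 57.8% of all genes with a site.

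The annotation that the authors deposited with the sites gives the members several terms in common. Slc27a4, Dgat2 and Mttp shared the term endoplasmic reticulum, carried by 484 of the genes with a site (7.71%). Dgat2 and Plin2 shared the term lipid particle, which 28 of the genes with a site (0.446%) carry, and the term lipid storage, found for 8. Slc27a4 and Mttp shared the term brush border membrane, carried by 15 genes with a site (0.239%). Slc27a4 and Plin2 shared long-chain fatty acid transport, found for 2 genes with a site. The biological process terms of 515 genes, none of them members, could not be read in full, so counts of such terms are minimums. Slc27a4, Dgat2 and Mttp were among 9 genes annotated with fat digestion and absorption, and Plin2 was not. Because the members were chosen for their part in this pathway, the shared terms describe the choice.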

How the data were processed

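The tools named in the submitters' processing notes are FastQC, STAR, HISAT2 2.0.4 and cutadapt 1.9.3, on mm39, without roles or order. Sites carry MACS names; the version, settings and control of that caller are not stated. The authors deposited sites per sample, each with a fold ratio, a score, an FDR read here as percent from its range, and a position and length. In every row the score equals the −10 log10 p column and the length equals end minus start, so starts are printed counted from 1. Sites were taken by gene name. Percentages of lower sites are shares of the same list. A minimum of 1 base counted as overlap. No test was run, as each value comes from 1 library, and no p-value is printed other than the caller's. Python 3.11.15 and pandas 2.3.3 were used, and the overlap code was tested on simulated data. A RefSeq gene table of GRCm38.p6 served for gene names, gene types and which genes overlap, and none of its coordinates are printed; 47 of the 48 pathway symbols were found in it. No genome of the files' build was used, so no site sequence is printed. The members and gene lists were chosen with earlier results of these data known. Named genes were the 4 members, the pathway genes with a site in at least 2 lists, those with a member's pattern of lists, and those without a site; Plin3, Fitm2, Sec24c and the nearest sites were named after their values were seen.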

Additional observations from a re-analysis of the deposited data

How the results depend on the processing

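The 6 sites became 4 at a score of at least 70, 5 at a fold of at least 5 and 4 without each of the immunoprecipitations, and stayed 6 in the joined list and by the files' gene identifiers. At a score of at least 70 the genes of the 4 with a site were 2 in place of 4, with 1 in list 1 (Mttp) and 1 in list 3 (Plin2). A score of at least 60, chosen after the data were seen, left 1 gene in list 3. A fold of at least 5 left 1 gene in list 2 and 1 gene (Mttp) with sites in at least 2 lists. That count of 2 genes was 0 to 1 when each immunoprecipitation was left out in turn: 0 without list 2, and 1 without list 1 (Plin2) or list 3 (Mttp). Shared regions were 0 under every alternative run. Only the alternative that counted sites within 500 bases could have raised this count. The others remove sites or ask for more overlap, so their 0 was fixed in advance. Ranked by score in place of fold, the share of lower sites was 14% for Slc27a4, 28.8% for Dgat2, 39.7% and 79.4% for Plin2 in lists 2 and 3, and 84.1% and 44.4% for Mttp in lists 1 and 2. Ranked among the best site of each gene it was 45.5%, 51.8%, 9.54%, 60.1%, 70.4% and 40.6%, in the same order. The score is another of the caller's values over the same sites, while the ranking among best sites used fewer sites. Why the shares shifted was not tested. Pathway genes with a site stayed within 10 to 14. No paired analysis was possible because IgG samples have no values here and sites are known only where they were called. Depth is unknown and the lists are partial, which limits what the absence of a site can show.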

Other observations

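The identifier that the files give for both Plin2 sites belongs in RefSeq to Gm12551, a transcribed pseudogene whose bounds overlap those of Plin2 in the GRCm38 table, although the gene name and description in the files are those of Plin2. Naming sites by the RefSeq symbol of the identifier, an alternative chosen after the data were seen, left 4 of the 6 sites. Whether strand was used in assigning sites is not given in the sources used here. Whether either Plin2 site lies where the 2 genes overlap was not examined. It is therefore not known whether the reads at these sites came from Plin2 or Gm12551. The other 3 members had the same symbol by name and by identifier.

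The authors' deposited table of 11 gene symbols holds Mttp, Dgat2 and Slc27a4 and leaves out Plin2. Of the 11 symbols, 9 had a site with a score of at least 70, as had 82.9% of all genes with a site. The 2 without one were Dgat2 and Slc27a4, each with 1 site. Of all genes with exactly 1 site, 63.6% reached that score. The symbols are the authors' own choice and no independent evidence.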
